A study of Papaver somniferum with 12 samples.

Results

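Leaf transcripts of the opium poppy (Papaver somniferum) cultivars Z and G, which the study lists with more leaf morphine, were compared with those of B2 and T, which it lists with less. All 12 libraries of the series entered the comparison, 6 on each side, as 3 independent samples of each cultivar. The cultivars came from directed breeding and were grown in 1 experimental plot, and top leaves were collected at the filling stage, after flowering, with no treatment. The groups therefore share tissue, stage and site, and differ by cultivar. Morphine enters here only as the order of the cultivars, and alkaloid measurements of single samples were not used. Other alkaloids follow the same split. The study lists more codeine in Z and G than in B2, and none detected in T. It detected papaverine in B2 and T but not in Z and G. This split cannot tell these alkaloids from morphine. B2 and T also differ, since thebaine was abundant in T and not detected in B2.

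Morphine is a benzylisoquinoline alkaloid. It is built from tyrosine through reticuline, thebaine and codeine, and the late steps remove methyl groups from thebaine and codeine. In poppy the enzymes of the pathway are known to be expressed around the phloem, and the alkaloids are stored in the latex of specialised cells called laticifers, which run through leaf, stem and capsule. A difference in leaf morphine can thus accompany differences in synthesis, transport or storage.

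Expression was given as RPKM (reads scaled by transcript length and by the mapped reads of the library) for 61856 unigenes, which are transcripts assembled from long reads of another cultivar, B1. The identifiers carry no gene names, and 0 of them matched the 91581 genes of the reference table. The study made a functional annotation of the unigenes public, but that annotation was not used here. Unigenes are therefore described by identifier, and no enzyme of the morphine pathway was picked out. The leaf label was not checked against marker genes. Summed RPKM ranged from 993016 to 1061090 per library, and 28977 to 31148 unigenes per library reached 1 RPKM. The expression table holds no read counts, and the sequencing yield that the study lists for each library was not used here. In whole leaves, fewer cells of a type and less RNA per cell cannot be told apart. The 3 samples of a cultivar are described as independent, but not whether each was 1 plant. B2 replicate 3 stood apart. In 525 of the 33161 unigenes tested (1.58%) it lay at least 2 on the log2 scale above or below both other B2 libraries, against 8 to 119 unigenes for the 11 other libraries. Of the libraries used here, the study lists the lowest RNA integrity value and the lowest rate of high-quality bases for B2 replicate 3. A link with RNA or read quality was not tested. The main counts for Z and G against B2 and T are also given without B2 replicate 3.

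The first question was how many unigenes differed between the sides. Differences were taken on log2(RPKM + 1), a scale that understates changes at low levels, with equal weight for each cultivar. A unigene was called at a limma adjusted p under 0.05 and a difference of at least 1. Of 33161 unigenes, 817 (2.46%) were called, 343 higher (1.03%) and 474 lower (1.43%) in Z and G. Without the limit on size, 4458 passed (13.4%). The balance of directions rested on the B2 libraries. The numbers higher and lower were 482 and 331 (813 in all) without B2 replicate 3, 308 and 254 without B2 replicate 1, and 416 and 325 without B2 replicate 2. The median difference over all unigenes tested was -0.04.

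The mean of B2 and T can be moved by either cultivar, and B2 moved it more. Z and G against B2 alone gave 2409 calls, and against T alone 284. It was therefore required that Z minus B2, Z minus T, G minus B2 and G minus T all have 1 direction. This held for 561 of the called unigenes (1.69% of those tested), 297 higher (0.896%) and 264 lower (0.796%) in Z and G. Without B2 replicate 3 there were 551, of which 329 were higher and 222 lower. The lower unigenes were the larger part without G replicate 2 (231 and 251) and without Z replicate 3 (254 and 265), and also with a pseudocount of 0.1 in place of 1 (476 and 539). In 244 of the 256 that failed, Z and G stood on 1 side of B2 but not of T. In the other 12 they stood on 1 side of T but not of B2.

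Within the 561, B2 still lay farther from Z and G than T did. This was so for 238 of the 297 higher and 211 of the 264 lower unigenes. The share over all tested unigenes was not computed, so the pattern need not be particular to the 561. Among the higher ones the median difference was 1.95 for Z minus B2 and 1.73 for G minus B2, but 1.12 for Z minus T and 0.90 for G minus T. Among the lower ones these medians were -2.08, -1.94, -0.81 and -0.62. The median of the smallest of the 4 differences, called the gap here, was 0.70 for the higher and -0.49 for the lower unigenes.

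**Figure D1:**
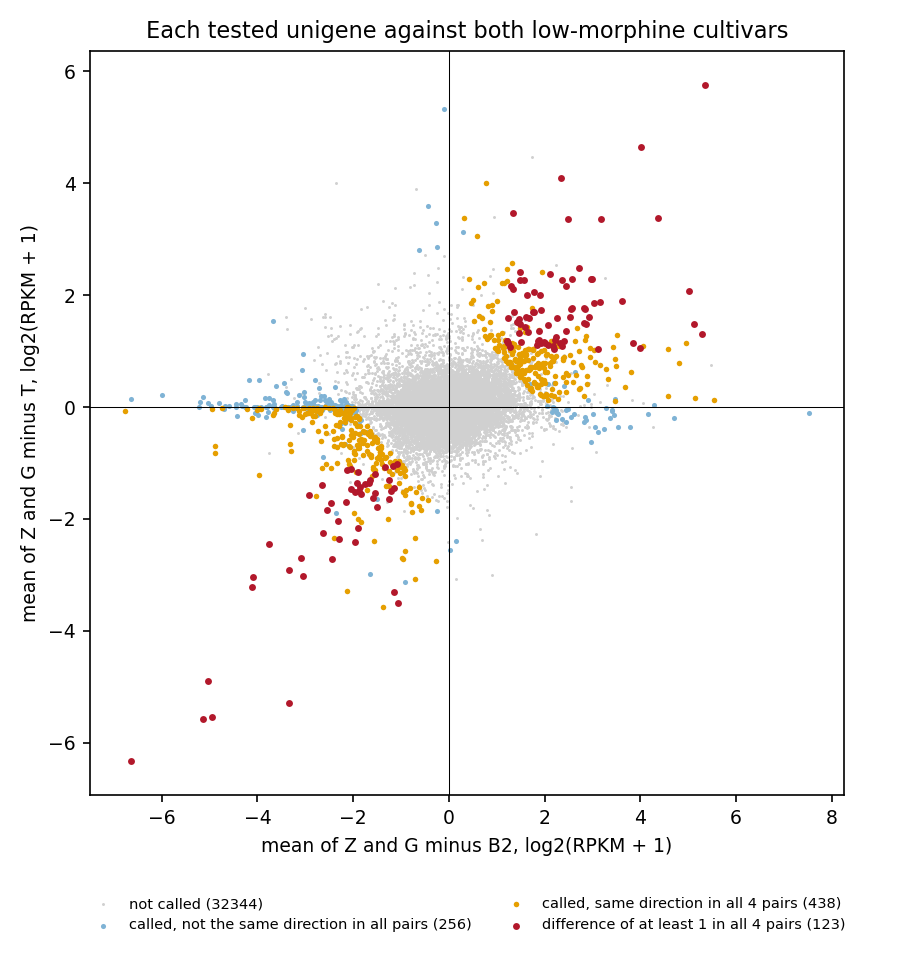
Each point is 1 of the 33161 tested unigenes, placed by the mean of Z and G minus B2 (x axis) and minus T (y axis), both on the log2(RPKM + 1) scale, and coloured by call. The called unigenes of mixed direction lie mostly along the horizontal line, where Z and G differ from B2 and not from T, and the 123 with a difference of at least 1 in all 4 pairs lie in the upper right and lower left corners.

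The same criteria were applied to both other ways of pairing the 4 cultivars, since 4 means always split into an upper and a lower pair. These pairings are not free of traits. The study detected sanguinarine in leaves of B2 and G but not of Z and T. It also describes purple spots on the flowers of Z and T, but not of B2 and G. A link of these traits with the counts was not tested. Over all tested unigenes, the upper pair was Z and G, or B2 and T, in 35.4%. For Z and T against B2 and G this share was 35.6%, and for Z and B2 against T and G it was 28.7%. Direction alone thus did not set the morphine pairing apart. Calls numbered 912 (2.75%) for Z and T against B2 and G and 502 (1.51%) for Z and B2 against T and G. Called unigenes with the same direction numbered 636 (1.92%) for Z and T against B2 and G, of which 154 were higher (0.464%) and 482 lower (1.45%) in Z and T. For Z and B2 against T and G they numbered 219 (0.66%), 155 higher (0.467%) and 64 lower (0.193%) in Z and B2. Leaving out B2 replicate 3 gave 716 and 345, and without B2 replicate 1 the latter was 114. The 3 pairings share all 12 libraries, and their counts were not tested against each other.

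A stricter count took only called unigenes that differed by at least 1 in all 4 pairs. There were 123 for Z and G against B2 and T (0.371%), 76 higher (0.229%) and 47 lower (0.142%) in Z and G. Without B2 replicate 3 there were 128, 81 higher and 47 lower. The higher unigenes remained the larger part in each of the 12 fits that left out 1 library, with 58 against 50 and 58 against 48 as the closest splits, without T replicate 3 and without G replicate 2. Z and T against B2 and G gave 174 (0.525%), of which 158 (0.476% of those tested) were lower in Z and T. Z and B2 against T and G gave 21 (0.0633%). Without B2 replicate 3 these were 154 and 30. At larger gaps the order of the first 2 pairings changed more than once. A gap of at least 3 was reached by 10, 11 and 1 unigenes in the 3 pairings, and a gap of at least 4 by 5, 2 and 0. At a gap of 6.25, 1 unigene was left for Z and T against B2 and G and 0 for Z and G against B2 and T.

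**Figure D2:**
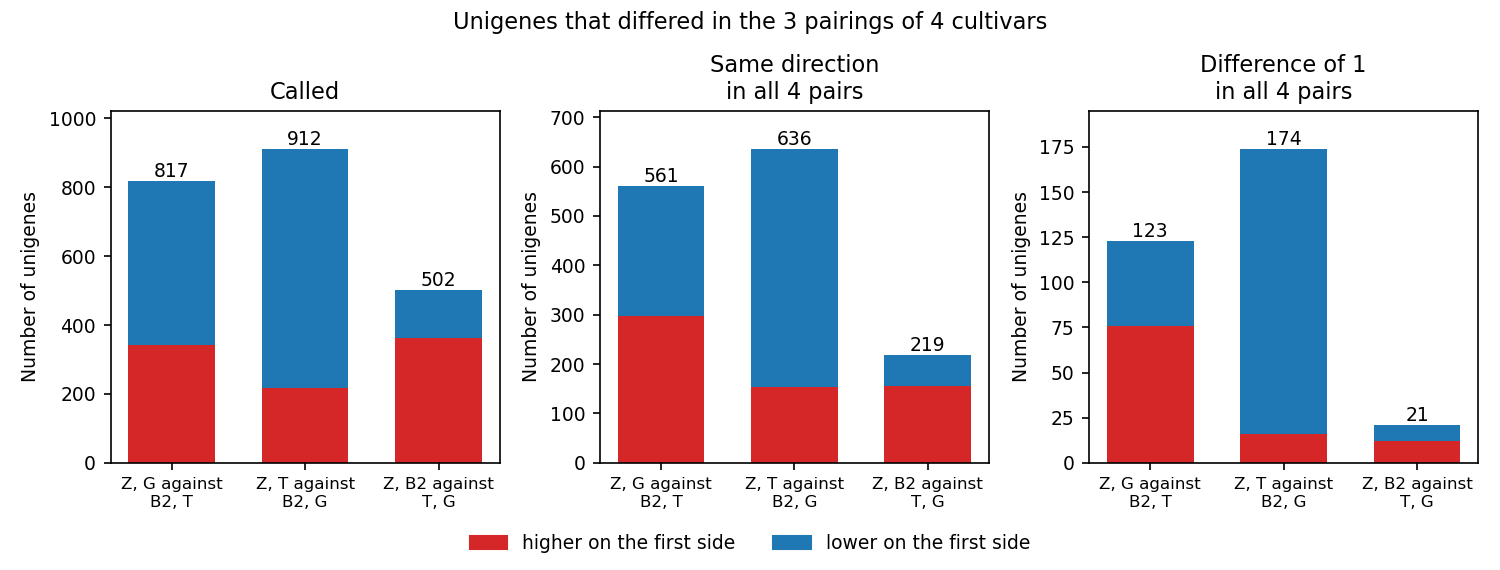
Bars give the number of unigenes called (left), called with the same direction in all 4 pairs (middle) and called with a difference of at least 1 in all 4 pairs (right) for the 3 pairings, split into those higher (red) and lower (blue) on the first-named side. Z and T against B2 and G has the highest bar in each panel, with 912, 636 and 174 unigenes, against 817, 561 and 123 for Z and G against B2 and T.

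**Figure D3:**
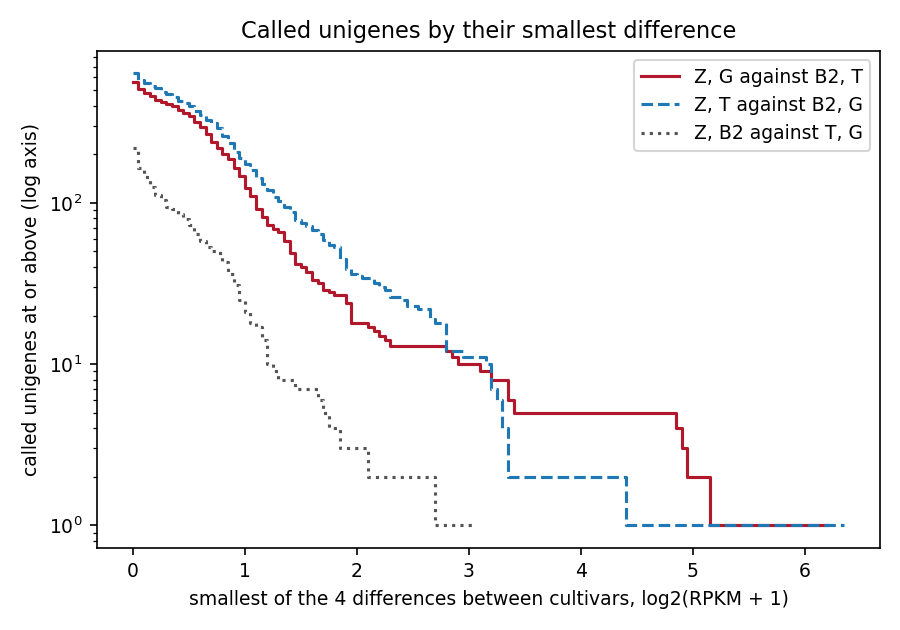
The lines count, on a log axis, the called unigenes whose smallest difference among the 4 pairs of cultivars is at least the value on the x axis, in log2(RPKM + 1). The line for Z and G against B2 and T runs below that for Z and T against B2 and G at a gap of 1 (123 and 174) above it at a gap of 4 (5 and 2), and below it again at 6.25 (0 and 1).

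The sums of squares of the 3 pairings, which share all 12 libraries, add up to the total for all differences among the 4 cultivar means. Z and G against B2 and T held 35.6% of this total, Z and T against B2 and G 38.1%, and Z and B2 against T and G 26.3%. The largest contrast of a unigene was that of Z and G against B2 and T in 11836 unigenes (35.7%). It was that of Z and T against B2 and G in nearly as many, 11796 (35.6%). For Z and B2 against T and G the number was 9529 (28.7%).

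The p-values above rest on the spread between libraries of 1 cultivar. They apply to these 4 cultivars and not to morphine content, for which each side has only 2 cultivars. An exact permutation over 4 cultivars cannot give a p below 0.333. When limma was run on the 4 cultivar means, with the cultivar as the replicate, 0 unigenes passed an adjusted p under 0.05 for Z and G against B2 and T, and 1680 (5.07%) had an unadjusted p under 0.05. For both other pairings the adjusted count was also 0, with 1478 (4.46%) and 674 (2.03%) at an unadjusted p under 0.05. The lowest limma adjusted p over cultivar means was 0.0520, shared by PB.47710.1 and PB.60466.1. Both passed 0.05 after median-ratio scaling and in 5 of the 12 fits that left out 1 library, with PB.29770.2 joining them in 1.

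Libraries of both sides did not overlap in 935 of all tested unigenes (2.82%) and in 225 of the 817 called. Over all tested unigenes, Z and T against B2 and G gave 1014 without overlap (3.06%). Z and B2 against T and G gave 323 (0.974%). Of the 123 with a difference of 1 in all pairs, 100 had no overlap, 59 of the 76 higher and 41 of the 47 lower. The 817 and the 123 were chosen for distance between the sides in these libraries, so their lack of overlap follows largely from that choice. From the called unigenes of 1 direction without overlap whose mean reached 5 RPKM in the higher pair of cultivars, which were 119 higher and 59 lower, the 12 of each direction with the largest gap are named here. These 24 were chosen by their size, and their values are a description.

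The unigenes lower in Z and G included transcripts that were almost missing there. The unigenes were built from B1, so a transcript of Z or G that is not made and one whose sequence departs from B1 cannot be told apart. PB.60466.1 had the largest gap of the comparison. It had 110.79, 127.92 and 93.95 RPKM in B2 and 86.15, 84.67 and 94.06 RPKM in T. In Z it had 0.10 RPKM in replicate 1 and was listed at 0 in replicates 2 and 3, and in G it had 0.20, 0.20 and 0.19 RPKM. The sides were far apart, and B2 and T were close to each other. Its difference was -6.48 (SE 0.0778, limma adjusted p = 7.76e-12) and its gap -6.22.

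PB.29770.2 had 35.11, 29.91 and 41.57 RPKM in B2 and 46.04, 50.64 and 46.91 RPKM in T. It had 0.04, 0.04 and 0 RPKM in Z and 0, 0 and 0.06 RPKM in G, so no library of Z or G exceeded 0.06. The difference was -5.36 (SE 0.0792, limma adjusted p = 3.55e-11). PB.47445.1 had 7.78, 14.51 and 6.78 RPKM in B2, 45.65, 38.70 and 32.22 RPKM in T, and no more than 0.03 RPKM in any Z library. Each G library listed it at 0. Its difference was -4.32 (SE 0.155, limma adjusted p = 3.02e-08), and it was also called between B2 and T, lower in B2. PB.29770.2 and PB.47445.1 were the 2 unigenes with at least 1 RPKM in each of the 6 B2 and T libraries and below 0.1 RPKM in all 6 of Z and G. The reverse pattern was found in 0 unigenes. The 2 rose to 4 without B2 replicate 3, then 2 in each direction, and to 4 without T replicate 3. The same count over both directions was 32 for Z and T against B2 and G and 2 for Z and B2 against T and G.

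PB.47710.1 had 33.98, 41.89 and 27.20 RPKM in B2 and 31.57, 27.56 and 34.04 RPKM in T. It had 0, 0.03 and 0.40 RPKM in Z and 0, 0 and 0.05 RPKM in G. The 2 cultivars of each side differed by 0.13 (B2 minus T) and 0.15 (Z minus G), and the sides by -4.96 (SE 0.119, limma adjusted p = 2.07e-09). PB.61230.1 was lower without being missing, with 105.39, 131.58 and 46.11 RPKM in B2, 150.93, 117.74 and 125.10 RPKM in T, 2.07, 1.47 and 1.47 RPKM in Z and 2.32, 1.77 and 1.97 RPKM in G. Its mean was 61.1-fold lower in Z and G, and the difference was -5.24 (SE 0.215, limma adjusted p = 7.25e-08).

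The next unigenes of this direction had smaller gaps. PB.41963.2 had 32.14, 32.77 and 32.64 RPKM in B2, 21.73, 10.17 and 21.88 RPKM in T, 0.73 to 1.81 RPKM in Z and 0.46 to 0.98 RPKM in G. PB.53048.1 had 10.50 to 11.48 RPKM in B2, 7.73 to 8.31 RPKM in T, and 0.14 to 0.30 RPKM in Z and G. Its 4 groups were tight, with a difference of -3.12 (SE 0.0626, limma adjusted p = 4.67e-10). PB.60337.1 had 20.67, 21.51 and 64.82 RPKM in B2, so that replicate 3 was high there, 8.69 to 19.31 RPKM in T and 0.40 to 1.65 RPKM in Z and G. PB.54745.2 had 10.62 to 13.18 RPKM in B2 and T, 0.35 to 0.38 RPKM in Z and 0.78 to 1.09 RPKM in G.

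The last 3 named unigenes of this direction varied more within a cultivar or between B2 and T. PB.30674.6 had 30.08 to 33.08 RPKM in B2, 8.46 to 14.49 RPKM in T and 0.98 to 3.11 RPKM in Z and G. PB.21350.2 had 10.19 to 16.38 RPKM in B2 and T and at most 0.07 RPKM in G, but 0, 4.17 and 4.30 RPKM in Z, where replicate 1 resembled G and the others did not. PB.60381.1 had 99.41, 97.50 and 29.97 RPKM in B2, 57.55, 26.45 and 219.34 RPKM in T, and 6.46 to 26.25 RPKM in Z and G. Its lowest T library, at 26.45 RPKM, lay just above the highest of G, at 26.25 RPKM, and its limma adjusted p of 0.0107 was the highest of the 24.

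Of the unigenes higher in Z and G, PB.25482.1 had the largest gap. It had 0.12, 0.34 and 5.29 RPKM in B2 and 0.29, 1.08 and 0.46 RPKM in T, against 109.41, 130.46 and 104.99 RPKM in Z and 50.43, 77.50 and 63.05 RPKM in G. The lowest library of Z and G was above all of B2 and T, although B2 replicate 3 was well above its 2 companions. The difference was 5.55 (SE 0.367, limma adjusted p = 2.86e-06). PB.14587.1 had a like pattern, with 0.18, 0.08 and 3.38 RPKM in B2, 0.13, 0.11 and 0.17 RPKM in T, 65.32, 33.26 and 43.69 RPKM in Z and 12.46, 20.68 and 17.52 RPKM in G. The difference was 4.33 (SE 0.323, limma adjusted p = 7.40e-06), and Z was above G in every library.

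PB.42607.1 was the tightest of the higher unigenes. It had 3.63, 3.98 and 3.90 RPKM in B2, 9.09, 8.49 and 8.31 RPKM in T, 106.97, 99.26 and 91.81 RPKM in Z and 99.22, 104.90 and 93.69 RPKM in G. Z and G had nearly the same mean, 99.3 ± 7.58 and 99.3 ± 5.61 RPKM (SD, n = 3 each), and the mean of the sides differed 15.9-fold. Its difference was 3.88 (SE 0.0599, limma adjusted p = 3.82e-11). PB.34326.1 was close to an on and off pattern at a lower level, with 0.15, 0.15 and 0.09 RPKM in B2, 8, 9.01 and 10.20 RPKM in Z and 9.17, 10.65 and 8.74 RPKM in G. Each T library listed it at 0, and its difference was 3.27 (SE 0.0745, limma adjusted p = 1.43e-09).

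PB.39657.1 was higher in G than in Z on average. It had 2.69 to 3.57 RPKM in B2, 1.09 to 1.57 RPKM in T, 13.40 to 28.58 RPKM in Z and 24.95 to 29.66 RPKM in G. PB.30881.1 had 1.60 to 3.50 RPKM in B2 and 0.04 to 0.06 RPKM in T, and 22.84 to 29.92 RPKM in Z and 6.61 to 17.86 RPKM in G, so that all 4 cultivars had separate ranges. PB.59990.1 had 2.31 to 3.64 RPKM in B2 but 24.64 to 37.77 RPKM in T, with 84.47, 277.05 and 131.05 RPKM in Z and 62.47, 156.77 and 162.67 RPKM in G. On the log2 scale T was nearer to Z and G than to B2.

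In a further group the replicates of a cultivar varied several-fold. PB.35319.1 had 5.34 to 16.21 RPKM in B2, 13.74 to 22.56 RPKM in T, 85.34 to 140.84 RPKM in Z and 59.05 to 132.29 RPKM in G. PB.43962.1 had 22.73, 72.68 and 39.52 RPKM in Z and 15.00, 63.16 and 31.94 RPKM in G, against 2.97 to 10.93 RPKM in B2 and T. In PB.56597.1, G replicate 2 reached 96.87 RPKM against 15.43 and 45.68 RPKM in the others, Z had 12.03 to 29.88 RPKM, and B2 and T had 2.01 to 8.70 RPKM. Replicate 2 was the highest library of T in the remaining 2. PB.59466.1 had 2.41, 24.61 and 6.28 RPKM in T, 3.25 to 13.91 RPKM in B2 and 27.87 to 49.97 RPKM in Z and G. PB.56462.1 had 13.71, 51.77 and 13.44 RPKM in T, 7.04 to 9.74 RPKM in B2 and 76.87 to 86.43 RPKM in Z and G.

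The 2 cultivars of a side were also compared. None of the 24 named unigenes was called between Z and G (0 of 24, where 220 of all tested unigenes or 0.663% were called). At that share, 0 of 24 says nothing particular about these unigenes, and choosing by the gap favours close cultivars within a side. Z minus G was still 1.52 in PB.21350.2 and -1.14 in PB.56597.1. Between B2 and T, 5 were called (7.05% of all tested). The 5 were PB.59990.1, PB.56462.1, PB.30881.1, PB.47445.1 and PB.30674.6. All 24 kept their call and direction in the 17 alternative fits, 12 of which each left out 1 library. The 24 were chosen for large gaps in these same libraries, so this was largely set by the choice and is no independent support.

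**Figure D4:**
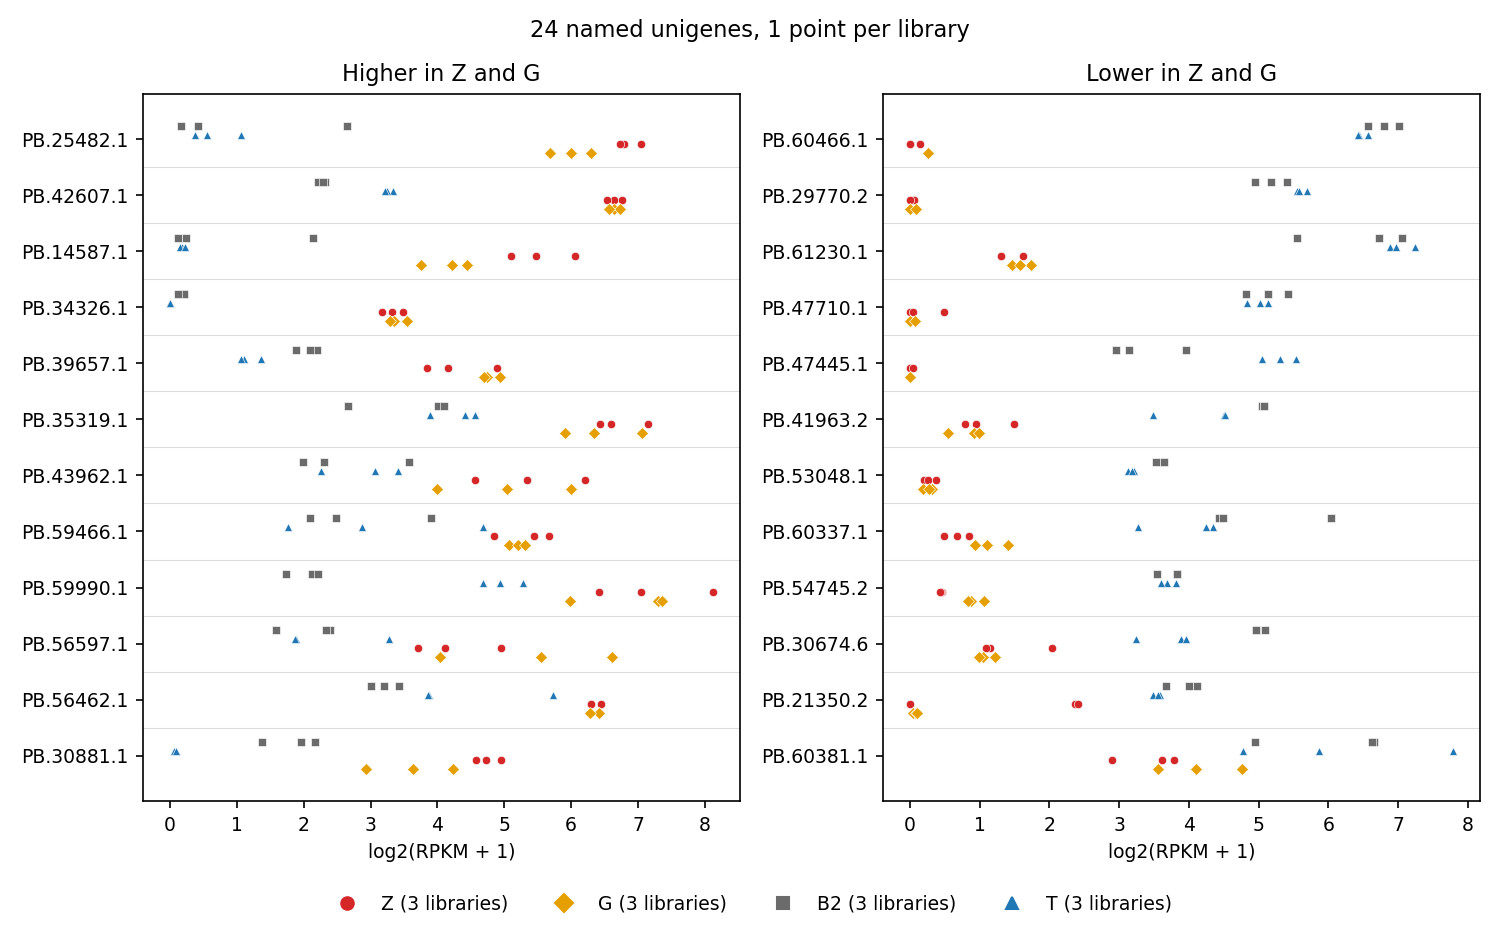
Every point is 1 library, with log2(RPKM + 1) on the x axis and the 24 named unigenes on the y axis, 12 higher (left) and 12 lower (right) in Z and G, ordered by gap. The red and yellow points of Z and G do not overlap the grey and blue points of B2 and T in each row, and the single B2 square near 2.7 for PB.25482.1 is replicate 3, at 5.29 RPKM.

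The level of the unigenes with a difference of 1 in all pairs was unequal in both directions. The mean on the higher side reached 50 RPKM in 33 of the 76 unigenes higher in Z and G and in 7 of the 47 lower ones, with medians of 34.4 and 12.5 RPKM. Summed over the 76 unigenes, the libraries of Z and G held 10482 to 17900.2 RPKM (median 15770), 1.03% to 1.77% of all RPKM of a library. Those of B2 and T held 3034 to 6988 RPKM (median 3846), 0.289% to 0.682%. Summed over the 47 lower unigenes, B2 and T held 1024 to 1574 RPKM and Z and G 195 to 258 RPKM. These sums follow from how the unigenes were chosen.

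A few abundant unigenes made up much of the first sum, and they were picked out after their values were seen. PB.2853.31 had 1265.35, 1345.51 and 753.77 RPKM in B2, 2453.88, 2272.26 and 1289.70 RPKM in T, 3366.13, 5212.22 and 3821.93 RPKM in Z and 3447.65, 4831.69 and 5647.49 RPKM in G. T lay between B2 and the other 2 cultivars, and the difference was 1.57 (limma adjusted p = 0.000936). PB.15857.5 had 280.27 to 344.86 RPKM in B2, 475.23 to 872.08 RPKM in T, 1308.24 to 3345.71 RPKM in Z and 1493.10 to 3333.32 RPKM in G. Its difference was 2.30 (limma adjusted p = 0.000264). In PB.58632.2, T replicate 2 had 460.50 RPKM against 56.80 and 88.42 RPKM in the other T libraries, which put it above Z replicate 2 at 407.51 RPKM. The other libraries of Z had 1146.89 and 1021.05 RPKM, those of G 536.73 to 698.24 RPKM and those of B2 130.06 to 193.82 RPKM.

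**Figure D5:**
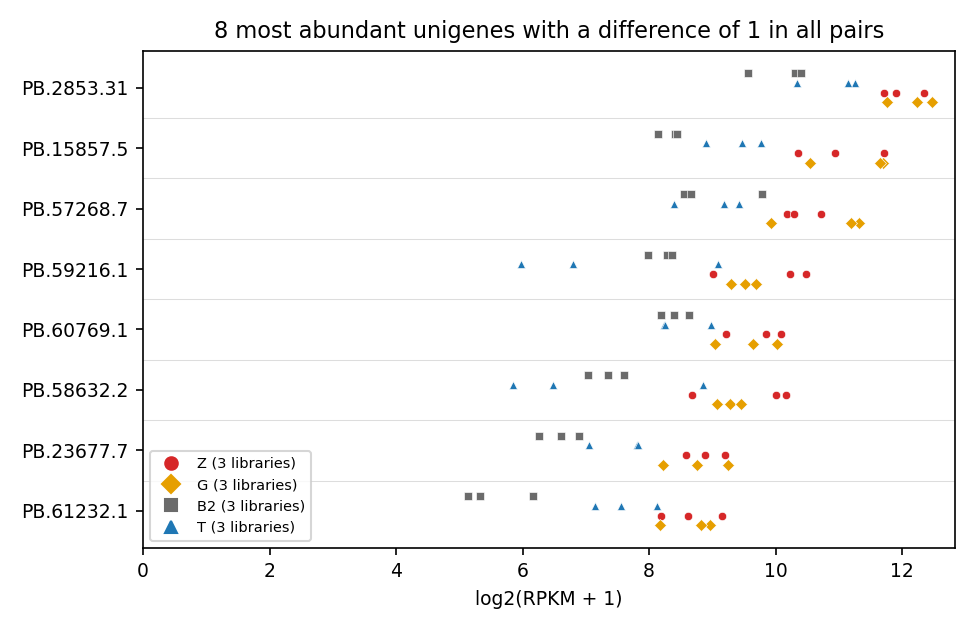
The 8 most abundant unigenes among the 123, with 1 point per library on a log2(RPKM + 1) axis. Z and G lie to the right of B2 and T in most rows, and in PB.59216.1 and PB.58632.2 the T triangle far to the right of the other T libraries is replicate 2, which overlaps Z.

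Single libraries that left their cultivar were then counted among the 123 unigenes. B2 replicate 3 lay at least 2 on the log2 scale from both other B2 libraries in 11 of them, and in 7 of these it lay toward Z and G. T replicate 2 did so in 4, all toward Z and G, and Z replicate 1 in 3, of which 2 were toward B2 and T. These were 8.94%, 3.25% and 2.44% of the 123, against 1.58%, 0.359% and 0.193% of all tested unigenes. The 123 were chosen by size, and the shares were not tested against each other. The other 9 libraries did so in 0. Over all tested unigenes their shares were 0.0241% to 0.118%, so 0 of 123 says nothing particular about these unigenes. In PB.58154.1, which was picked after its values were seen, B2 had 0, 0 and 4.14 RPKM and T was listed at 0 throughout, while Z and G had 3.38 to 4.64 RPKM, so that B2 replicate 3 stood at the level of Z and G. The opposite was seen in PB.3183.11, with 0, 0 and 8.43 RPKM in B2, 9.58 to 10.92 RPKM in T and at most 0.02 RPKM in Z and G, and in PB.48585.1, with 0.58, 0.44 and 11.15 RPKM in B2, 7.56 to 17.49 RPKM in T and 0.20 to 0.59 RPKM in Z and G. In both, B2 differed from Z and G through replicate 3 alone. In PB.52477.3, T had 0.66, 50.03 and 1.29 RPKM, B2 had 22.43 to 28.85 RPKM and Z and G had 49.86 to 87.15 RPKM. In PB.27406.4, Z had 0.37, 7.51 and 8.84 RPKM, G had 4.96 to 10.02 RPKM and B2 and T had at most 0.94 RPKM. The source of these single libraries was not tested.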

How the data were processed

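Leaf RNA of 12 libraries was sequenced with paired-end reads on an Illumina HiSeq platform. The authors mapped reads with HISAT2 2.05 onto unigenes built from long reads of cultivar B1 and estimated expression with RSEM. The deposited values are in RPKM (the methods of the study say FPKM), rounded to 2 decimals. Reads are divided among similar unigenes, and a transcript whose sequence differs from B1 can score low although its RNA is not scarce. Read counts could not be recovered from the values: between 0.1 and 0.5 RPKM the commonest ratio of 2 libraries (rounded to 0.01) was 1 in all 66 pairs and held at most 5.57% of unigenes.

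Unigenes at 1 RPKM or more in at least 3 libraries were kept (33161). Values were transformed to log2(RPKM + 1), and a model with cultivar as its factor was fitted in limma 3.58.1 (R 4.3.3, eBayes with trend, two-sided, Benjamini-Hochberg over all 33161). Calls needed an adjusted p under 0.05 together with a difference of 1, which is a fold of 2 of RPKM + 1 and at low levels a larger fold of RPKM. Standard errors are limma's. Named unigenes were the 12 of each direction with the largest gap among those called, of 1 direction in all 4 pairs, without overlap of libraries, and reaching a mean of 5 RPKM in the higher pair of cultivars. A planned result per locus was not computed, because each number before the second point of an identifier belonged to 1 unigene. Alternatives were a pseudocount of 0.1, no filter, median-ratio scaling, array weights, a replicate block, each cultivar of a side alone, the adjusted p alone, and leaving out each library. Comparisons, members and lists were chosen with earlier results of these data known. Figures were made with Python 3.11.15 and matplotlib 3.10.9.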

Additional observations from a re-analysis of the deposited data

How the results depend on the processing

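The 10 results on the comparison and its 2 other pairings had 167 alternative values. Of these, 142 stayed within 1.5 times of the count or within the spread of the share, and 25 moved. The rule takes totals only and does not see a changed balance of directions. The spread was the SD of the leave-one-out shares themselves, so the tally is no test of stability. Among the 408 alternative values of the 24 named unigenes, 0 lost the call and 0 reversed, which their choice by large gaps in the same libraries largely set in advance. A pseudocount of 0.1, which weights low levels more, gave 1563 calls, 1015 with the same direction in all pairs and 256 with a difference of 1 in all pairs. For Z and T against B2 and G it gave 1093 and 384, and for Z and B2 against T and G 430 and 63, and the share of the sum of squares was 33.6%. Array weights gave 461 and 37 for Z and B2 against T and G; the cause was not tested. Dropping the limit on size gave 4458. With a single cultivar as the low side there were 2409 calls (B2) and 284 (T). Over cultivar means, median-ratio scaling gave 2 calls.

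Over the 12 leave-one-out fits, calls ran from 562 (without B2 replicate 1) to 847, those with the same direction from 455 to 618, and those with a difference of 1 in all pairs from 106 to 150. For Z and T against B2 and G the last 2 ran from 521 to 716 and from 144 to 199, and for Z and B2 against T and G from 114 to 345 and from 15 to 30. Calls over cultivar means ran from 0 to 3, the share of the sum of squares from 33.4% to 37.9%, and on and off unigenes from 2 to 4.

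With the replicate number as a block the counts were 826, 567 and 124 for Z and G against B2 and T, and none of the 7 counts fitted with the block, those of the other pairings included, moved by over 1.5 times. Cultivar means, the share of the sum of squares and the on and off count were not fitted with it. The numbers are not stated to mark shared plants or days. Deviations of same-numbered libraries correlated above 0.1 in 6 of 18 pairs (-0.10 to 0.19). Pairs of different numbers ran from -0.22 (Z replicate 3 with G replicate 2) to 0.11 (Z replicate 3 with G replicate 1). Of these, only that last pair and B2 replicate 1 with G replicate 2 (0.101) lay above 0.1. Not every same-numbered pair passed, and the numbers were not taken to pair the samples. This does not show that the samples are unpaired. As a hint from the data toward shared numbering, 9 of the 12 libraries correlated best with a library of their own number.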

Other observations

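Of the 123 unigenes that differed by at least 1 in all 4 pairs, PB.59216.1 and PB.58632.2 rose and fell together over the libraries. The ratio of PB.59216.1 to PB.58632.2 was 1.09 to 1.26 in the 9 libraries of T, Z and G, and 1.69 to 1.93 in the 3 libraries of B2. These ranges do not overlap. The pair was picked after its values were seen, and no test was made.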
